A study of Drosophila melanogaster with 6 samples.

Results

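The genes described here are 10 members of the machinery by which flies recognise bacterial cell wall and pass the signal to the nucleus: the peptidoglycan recognition proteins PGRP-SA, PGRP-SB1, PGRP-SC2, PGRP-SD, PGRP-LB and PGRP-LC, the glucan-binding family protein GNBP1, the NF-kB factor Relish (Rel), the IkB protein Cactus (cact) and the serpin Necrotic (nec). Members were taken as the probe sets whose annotated symbol is that of the gene. They were found for 6 of the 10 genes, with 1 probe set each, among 13966 probe sets other than array controls, which cover 10845 genes with a probe set of their own. PGRP-SA, PGRP-SD, PGRP-LC and GNBP1 had no probe set under their symbol in the annotation used here and were not analysed here. All 6 probe sets found were above a signal of 40 on at least 1 array and so belonged to the 9432 probe sets tested.

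LARK is an RNA-binding protein of flies, and the arrays compared adult heads in which it was overexpressed in neurons with heads of a driver control. The LARK overexpression flies were the progeny of female elav-gal4 and male uas-lark flies, a mixture of elav-gal4; uas-lark/+ males and elav-gal4/+; uas-lark/+ females. The controls were the progeny of female elav-gal4 and male w1118 flies, a mixture of elav-gal4 males and elav-gal4/+ females. Both groups therefore carried the GAL4 driver, which is active in neurons, both were frozen at zeitgeber time 6, and their age is not given in the sources used here. Each genotype was represented by 1 total RNA sample that was labeled and hybridized 3 times, so the 3 arrays of a genotype are technical replicates. Every p-value below measures the spread between arrays, in part pooled over probe sets, and not between flies.

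In Drosophila, peptidoglycan recognition proteins bind fragments of bacterial wall. Some act as receptors: PGRP-SA, with GNBP1 and PGRP-SD, feeds a cascade of serine proteases that activates Spatzle, the ligand of the receptor Toll, and PGRP-LC is the membrane receptor of the Imd pathway. Others, among them PGRP-SB1, PGRP-SC2 and PGRP-LB, are amidases that cut peptidoglycan, and PGRP-LB and the PGRP-SC proteins are known for damping the Imd response, in particular in the gut. Toll signaling destroys Cactus, which otherwise holds the NF-kB factors Dif and Dorsal in the cytoplasm, and Imd signaling leads to the cleavage of Relish. Both pathways turn on antimicrobial peptide genes in the fat body, blood cells and epithelia, and several of the signaling genes are themselves induced by the pathways they serve.

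Each replicate number stood for 1 hybridization day shared by both genotypes, and the deposited signals had a trimmed mean of 150 for replicate 1, 85 for replicate 2 and 100 for replicate 3 in both genotypes. Values below are therefore given as rescaled signals, with the trimmed mean of each array set to 100. The test itself used log2 signals as deposited with no term for the day, so its standard error (SE) includes this scaling. With each array centred on its median the SE went from 0.47 to 0.27 for Rel and from 0.43 to 0.23 for nec. That of PGRP-SC2 rose from 0.71 to 0.93. In the centred fit 0 of the 6 members passed the test. LARK overexpression array 1 stood apart: the correlation of its log2 signals was lower with its own replicates (0.877 and 0.892) than with control array 1 (0.912), while LARK overexpression arrays 2 and 3 correlated at 0.946 and the control arrays with each other at 0.921 to 0.931. The ratio of 3' to 5' probe signal for the eIF-4a control transcript, a measure of RNA or labeling quality, was 6.27 ± 0.237 (SD, n = 3 arrays) with LARK overexpression and 2.88 ± 0.118 in the control. For actin it was 5.84 ± 0.35 and 2.42 ± 0.857, and for GAPDH, where the genotypes overlapped, 4.3 ± 0.951 and 3.27 ± 0.672. The probe set for lark itself read a rescaled 177, 169 and 165 on LARK overexpression arrays 1, 2 and 3 and 149, 184 and 192 on the control arrays, a log2 difference of -0.03 (SE 0.45). Where its probes lie relative to the transgene is not given in the sources used here, so this probe set is no check of the genotypes.

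None of the 6 probe sets passed the test across all arrays (limma, adjusted p under 0.05), against 1.55% of all probe sets tested in either direction and 0.339% in the direction of higher signal with LARK overexpression. All 6 log2 differences were above 0, the lowest at 0.03 for nec, as were 43.8% of those of all probe sets tested. With each array centred on its median the 6 were again above 0, beside 5200 of all 9432 probe sets. Without centring the median of the 6 was 0.64 against -0.07 over all probe sets. The median was not spread evenly over the days. It was 0.01 for replicate 1, 0.99 for replicate 2 and 0.81 for replicate 3. The summed rescaled signal of the 6 probe sets read 1881, 3921 and 3746 on LARK overexpression arrays 1, 2 and 3, and 1930, 2362 and 2406 on control arrays 1, 2 and 3. Thus LARK overexpression array 1 lay just below the lowest control array, and arrays 2 and 3 lay above all control arrays.

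**Figure D1:**
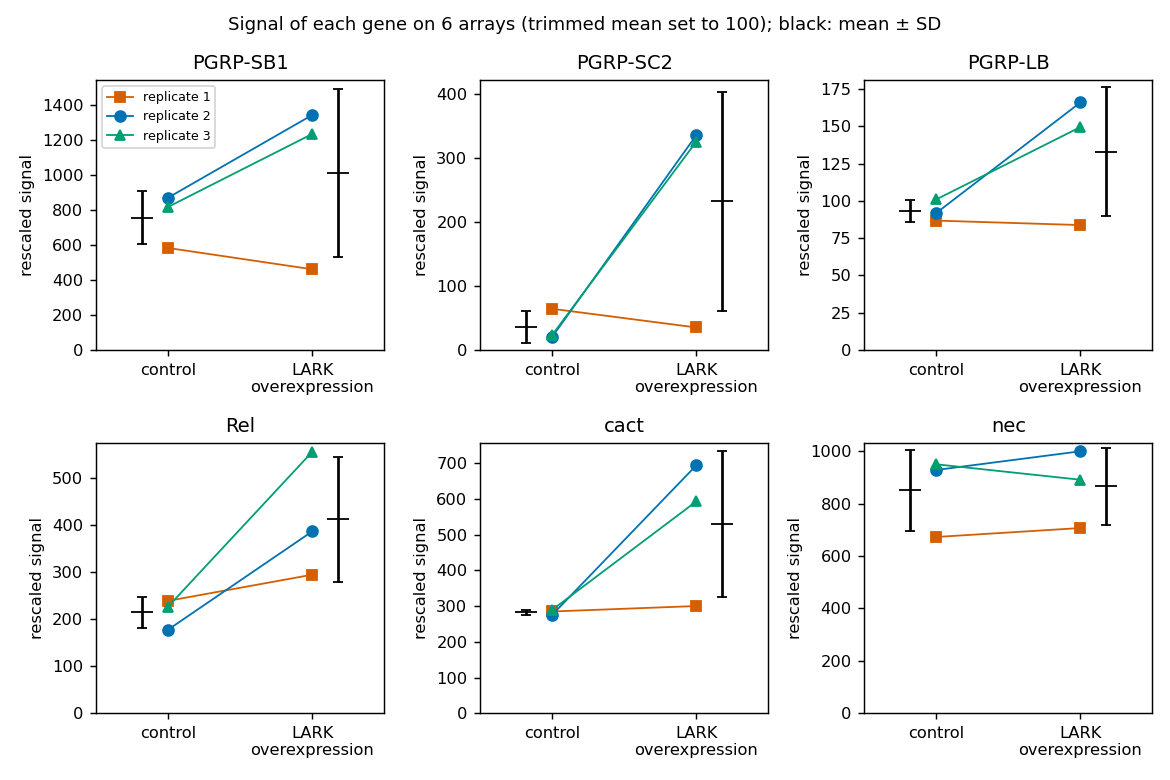
Rescaled signal of the 6 genes with a probe set (vertical axis, trimmed mean of each array set to 100) on the 3 control and 3 LARK overexpression arrays, with a line joining arrays of the same replicate number and black marks for the mean and SD of each genotype. For PGRP-SC2, LARK overexpression arrays 2 and 3 sit at 336 and 326 and array 1 at 35.3, while the lines for nec stay nearly flat.

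The largest difference among the 6 was that of PGRP-SC2, the secreted amidase. Its rescaled signal was 35.3, 336 and 326 on LARK overexpression arrays 1, 2 and 3. On control arrays 1, 2 and 3 it was 64.5, 20.5 and 23.5. LARK overexpression arrays 2 and 3 were far above every control array, but array 1 was below control array 1, so the genotypes overlapped. The log2 difference was 2.32 (SE 0.71), a 4.99-fold difference that did not pass the test (limma adjusted p = 0.13). PGRP-SC2 was the 1 member of 6 over 2-fold higher, beside 4.09% of all probe sets tested, and the 1 member with a p-value below 0.05 before adjustment, as had 1020 of all 9432 probe sets. By day the log2 differences were -0.87, 4.04 and 3.79 for replicates 1, 2 and 3. With the hybridization day as a replicate block the adjusted p was 0.314. As deposited, control arrays 2 and 3 gave signals of 17.4 and 23.5, which lie under 40, and with all signals under 40 set to 40 the log2 difference was 1.66 (adjusted p = 0.683).

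When both arrays of replicate 1 were left out, both remaining control signals lay under 40, and PGRP-SC2 was at least 7.62-fold higher with LARK overexpression when these were set to 40. On the measured signals the log2 difference was 3.91 (SE 0.28, limma adjusted p = 0.019). It was the 1 of the 6 probe sets that passed the test on these 4 arrays, where 1.28% of all probe sets passed it in the same direction. With the day as a block on these 4 arrays the adjusted p was 0.0944. Leaving out LARK overexpression array 1 alone gave 3.16 (SE 0.64, adjusted p = 0.0179), so on these settings the call turned on this array. The same gene also passed the test on all 6 arrays when 16 was added to each signal (1.86, SE 0.41), when the filter was raised to 100 (SE 0.50) and with an intensity trend and a robust variance prior together (SE 0.46), all with array 1 kept. In each of these fits the standard error was smaller than the 0.71 of the default fit. With 16 added it was 0.41 for all 6 members, a value shared across genes and not the spread of PGRP-SC2 itself. In the other fits it was near that of nec, 0.47 with the filter and 0.44 with the trend and prior. The SE of PGRP-SC2 was 0.93 with each array centred on its median and 1.08 with the day as a block. At the filter of 100 it entered only through LARK overexpression arrays 2 and 3, where it was high.

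PGRP-SC2 lies in a small cluster with PGRP-SC1a and PGRP-SC1b, which encode near-identical amidases. In the RefSeq gene table PGRP-SC1b is the next gene to PGRP-SC2, and PGRP-SC1a is separated from PGRP-SC1b by 1 gene. A probe set shared by PGRP-SC1a and PGRP-SC1b, which cannot tell them apart, had deposited signals of 12.6, 106.1 and 99.8 on LARK overexpression arrays 1, 2 and 3. On control arrays 1, 2 and 3 it read 10.6, 16.7 and 16.4. It was thus above 40 only on LARK overexpression arrays 2 and 3. With the control arrays set to 40, it was at least 1.28-fold higher over all arrays and at least 2.57-fold higher without replicate 1. The limma adjusted p on the measured signals was 0.238 over all arrays, 0.0266 without replicate 1 and 0.0944 when the day was added as a block to the latter. The probe set entered the test only through the 2 arrays on which it was high. With all signals under 40 set to 40, the log2 difference over all arrays was 0.91 (limma adjusted p = 0.632). A second probe set of the pair stayed under 40 on all 6 arrays and was not tested. Cross-hybridization between the probe sets of these related genes was not tested.

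PGRP-SB1, a secreted amidase induced in infected flies, had a rescaled signal of 461, 1340 and 1232 on LARK overexpression arrays 1, 2 and 3, and 582, 869 and 816 on control arrays 1, 2 and 3. LARK overexpression arrays 2 and 3 were the highest of all 6 and LARK overexpression array 1 the lowest, so the genotypes overlapped. The log2 difference of 0.29 (SE 0.45) did not pass the test (limma adjusted p = 0.999, and 0.591 with the day as a block). Its daily log2 differences were -0.34, 0.62 and 0.59, and without replicate 1 the difference was 0.61 (SE 0.24, adjusted p = 0.269).

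PGRP-LB, the amidase best known as a brake on the Imd pathway, had a rescaled signal of 83.8, 166 and 149 on LARK overexpression arrays 1, 2 and 3, and 86.8, 91.9 and 101 on control arrays 1, 2 and 3. The pattern was again that of 2 high arrays, with LARK overexpression array 1 slightly below the lowest control array. The log2 difference was 0.46 (SE 0.44, limma adjusted p = 0.993, and 0.372 with the day as a block). It was -0.05, 0.85 and 0.57 for replicates 1, 2 and 3, and 0.71 (SE 0.26, adjusted p = 0.247) without replicate 1.

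Rel and cact, the NF-kB factor of the Imd pathway and the inhibitor of the NF-kB factors of the Toll pathway, were the members whose direction was the same on every day. Rel had a rescaled signal of 294, 386 and 555 on LARK overexpression arrays 1, 2 and 3, and 239, 178 and 226 on control arrays 1, 2 and 3. The lowest LARK overexpression array was above the highest control array. The log2 difference was 0.91 (SE 0.47), a 1.87-fold difference that did not pass the test (limma adjusted p = 0.557, and 0.184 with the day as a block). By day it was 0.30, 1.12 and 1.29 for replicates 1, 2 and 3. Without replicate 1 it was 1.21 (SE 0.39, adjusted p = 0.2).

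For cact the rescaled signal was 301, 694 and 593 on LARK overexpression arrays 1, 2 and 3, and 285, 276 and 290 on control arrays 1, 2 and 3. The 3 control arrays lay close together, with LARK overexpression array 1 just above them and arrays 2 and 3 well above. The log2 difference was 0.81 (SE 0.45), a 1.76-fold difference (limma adjusted p = 0.603, and 0.248 with the day as a block). The daily log2 differences were 0.08, 1.33 and 1.03, and without replicate 1 the difference was 1.18 (SE 0.25, adjusted p = 0.107).

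Counted over the set, 2 of 6 probe sets, Rel and cact, were higher with LARK overexpression on all 3 days, beside 17.6% of all probe sets tested. So were 3 of 5 other recognition, 3 of 16 other Imd and 6 of 18 other Toll probe sets tested. In these lists 0, 4 and 4 were lower on all 3 days. Rel and cact were also the 2 of 6 whose rescaled signals did not overlap between genotypes, beside 8.28% of all probe sets. Such probe sets occurred among those lists too, in both directions. In the fit with the day as a replicate block, Rel and cact had p-values below 0.05 before adjustment, as had 1903 of all probe sets. Neither gene nor any other member passed the adjusted test, which 0% of all probe sets passed in that fit. When an intensity trend and a robust prior were added to the block, Rel passed (adjusted p = 0.0445) as 1 of 6, beside 1.51% of all probe sets in that direction, and cact did not (adjusted p = 0.0888). Without LARK overexpression array 1 and with each remaining array centred on its median, 3 of 6 passed, beside 4.19% of all probe sets in that direction: Rel with a log2 difference of 1.23 (adjusted p = 0.046), cact with 1.29 (adjusted p = 0.0185) and PGRP-SC2 (adjusted p = 0.0195). On the arrays of replicates 2 and 3, PGRP-SC2, Rel and cact, 3 of 6, were over 2-fold higher, beside 6.61% of all probe sets.

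The serpin Necrotic, which restrains the protease Persephone upstream of Toll, showed the smallest difference of the 6. Its probe set had a rescaled signal of 707, 999 and 891 on LARK overexpression arrays 1, 2 and 3, and 673, 928 and 950 on control arrays 1, 2 and 3. The genotypes overlapped throughout, and replicate 1 was the lowest array in both. The log2 difference was 0.03 (SE 0.43, limma adjusted p = 0.999), it was 0.07, 0.11 and -0.09 by day, and its sign turned under quantile normalization (-0.02).

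**Figure D2:**
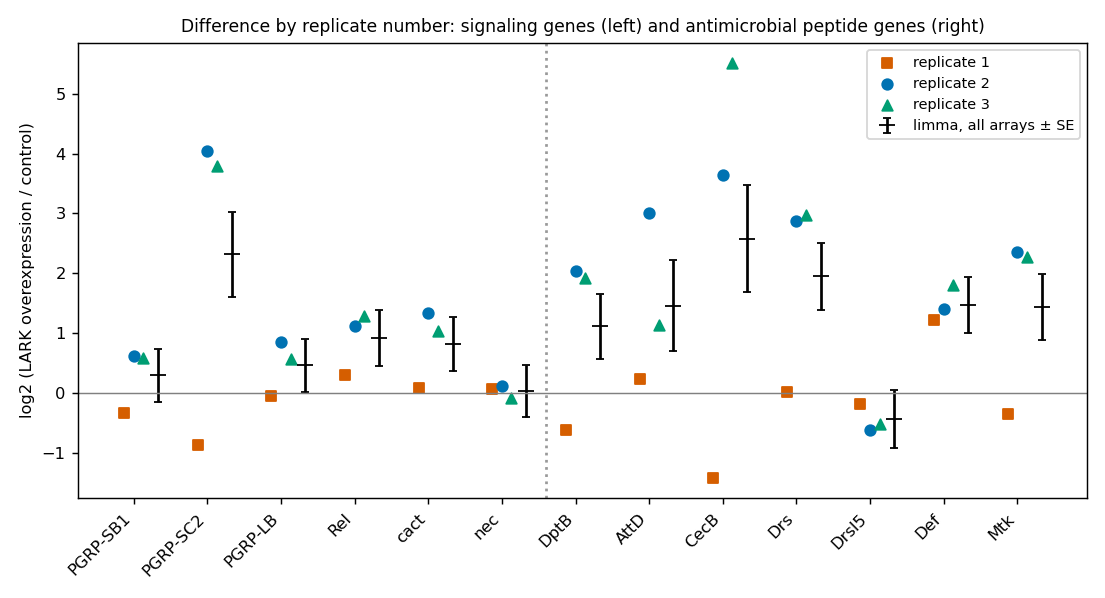
Log2 ratio of LARK overexpression to control signal (vertical axis) for each replicate number, for the 6 recognition and signaling genes left of the dotted line and 7 antimicrobial peptide genes right of it, with the limma estimate and its SE in black. For PGRP-SC2 the replicates 2 and 3 lie at 4.04 and 3.79 and replicate 1 at -0.87, whereas Rel and cact lie above 0 on each day.

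The members thus differed in how far LARK overexpression array 1 departed from its own replicates. On the rescaled log2 scale it lay below the mean of arrays 2 and 3 by 3.23 for PGRP-SC2, by 1.48 for PGRP-SB1 and by 1.09 for cact, the 3 of 6 members with a drop of more than 2-fold, beside 7.9% of all probe sets tested. For PGRP-LB, Rel and nec this array dropped by 0.91, 0.65 and 0.42. In the control no member had a drop of more than 2-fold on array 1, beside 3.05% of all probe sets. Control array 1 was 1.56 above the mean of control arrays 2 and 3 for PGRP-SC2, and between -0.53 and 0.25 of it for the other 5 members. These arrays come from the same RNA sample, labeled anew for each array, and the part that labeling, hybridization or sample identity plays in this split was not tested.

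Of 9 other recognition genes, 6 had probe sets of their own and 5 probe sets were tested. None passed the test, 4 of the 5 were above 0 and their median log2 difference was 0.09. By the highest mean signal these were PGRP-LA, a regulator of the Imd pathway (0.34, SE 0.45), GNBP3, which recognises fungal glucans (0.01, SE 0.48), and PGRP-LE, which recognises peptidoglycan of the diaminopimelic acid type (0.09, SE 0.47). The highest value in this list, chosen after the values were seen, was 0.91 (SE 0.47, limma adjusted p = 0.554) for PGRP-LF, a membrane protein that restrains PGRP-LC. It was above 40 on 1 LARK overexpression array and on no control array, and with signals under 40 set to 40 its log2 difference was 0.14. Thus no second recognition gene with a probe set of its own had a difference as large as PGRP-SC2.

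The wider Imd pathway, from the adaptor imd to the kinases and ubiquitin enzymes that act on Relish, had 16 probe sets tested, of which none passed the test. The median log2 difference was -0.09, with 6 of 16 above 0, or 12 of 16 with each array centred on its median, where the median of all probe sets moved from -0.07 to 0.06. The members of highest signal were ben, a ubiquitin-conjugating enzyme (-0.11, SE 0.46), akirin, a nuclear partner of Relish (-0.08, SE 0.44), and Diap2, a ubiquitin ligase (0.31, SE 0.51). The difference of Rel at 0.91 (SE 0.47), which did not pass the test either, lay above the whole range of this list, which ran from -0.69 to 0.54.

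The wider Toll pathway had 18 probe sets tested, none past the test, a median log2 difference of 0.17 and 10 of 18 above 0. The difference of cact at 0.81 lay within the range of this list, in which the protease gene Hayan was at 1.02. Its members of highest signal were SPE, the enzyme that activates Spatzle (0.05, SE 0.44), spz, which encodes Spatzle (0.55, SE 0.46), and psh, the protease that Necrotic restrains (-0.01, SE 0.49). An unadjusted p under 0.05 was found for 3 of 18 probe sets, as it was for 1020 of all 9432. The 3, named here after their values were seen, were the arrestin krz (at least 1.97-fold lower, limma adjusted p = 0.186), Hayan (1.02, SE 0.44, adjusted p = 0.392) and the receptor kinase Gprk2 (-1.12, SE 0.50, adjusted p = 0.412). The signal of krz was under 40 on all LARK overexpression arrays, so that its fold is a bound. With the day as a block the adjusted p was 0.141 for krz, 0.136 for Hayan and 0.0925 for Gprk2. When trend and robust prior were added to the block these and the Pellino gene Pli (-0.88, SE 0.47) passed, 1 higher and 3 lower of 18, beside 1.51% of all probe sets higher and 4.55% lower. The adjusted p was then 0.0462 for krz, 0.0352 for Hayan, 0.0143 for Gprk2 and 0.0473 for Pli, which in the plain block fit stood at 0.148.

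**Figure D3:**
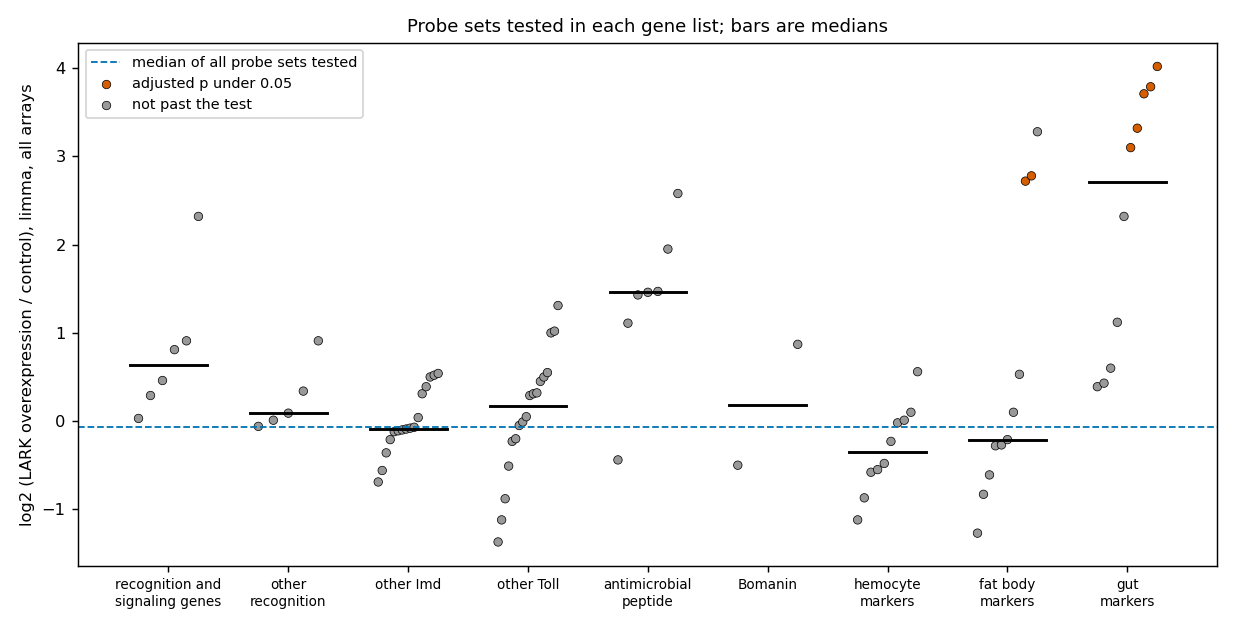
Log2 difference between LARK overexpression and control (vertical axis, limma on all 6 arrays) for each tested probe set of the recognition and signaling genes, the other pathway lists and markers of blood cells, fat body and gut. Bars are list medians, orange points have an adjusted p under 0.05 and the dashed line is the median of all probe sets tested at -0.07. The 6 recognition and signaling genes lie from 0.03 to 2.32 around a median of 0.64, between the other pathway lists and the antimicrobial peptide genes.

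The antimicrobial peptide genes, the outputs of both pathways, had median log2 differences of -0.18, 2.36 and 1.92 for replicates 1, 2 and 3 over 7 probe sets. Of these, 3 were higher on all 3 days, beside 17.6% of all probe sets tested: Def, AttD and Drs. On replicate 1 AttD was higher by 0.23 and Drs by only 0.02. The deposited AttD signals there were 10.3 with LARK overexpression and 8.8 in the control, both under 40. Drsl5 was lower on all 3 days. None of the 7 passed the test on all arrays, among them the 3 of highest signal, Mtk (1.43, SE 0.55, limma adjusted p = 0.281), DptB (1.11, SE 0.54, adjusted p = 0.495) and Drs (1.95, SE 0.56, adjusted p = 0.0985). Without replicate 1, 4 of 7 passed, beside 1.28% of all probe sets higher, and none of them with the day as a block on these arrays (adjusted p of 0.0944 for Drs to 0.111 for CecB, which was under 40 on every control array). Of 7 Toll-responsive Bomanin genes, 2 had a probe set, and these went opposite ways without passing the test. BomS2 had a log2 difference of 0.87 (SE 0.50, limma adjusted p = 0.654) and BomS4 of -0.50 (SE 0.58, adjusted p = 0.999). By day BomS2 was at -0.11, 1.36 and 1.35 and BomS4 at 0.41, -1.08 and -0.82.

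Heads hold fat body and blood cells beside the brain and eyes, and fewer cells of a type cannot be told apart from less RNA per cell in such samples. Neuron and eye markers, 9 of 12 of which had a probe set, had a summed rescaled signal of 15767 to 19466 on LARK overexpression and 18045 to 23916 on control arrays. The eye genes Arr1, Arr2, trp, inaC and chp and the synaptic gene nSyb were above 40 on all 6 arrays, but elav was so on 4, para on 1 and the brp probe sets on 0 to 2. The 1 of 10 tested probe sets of this list past the test was nSyb, beside 114 of all 9432 called lower. It was lower with LARK overexpression (-2.01, SE 0.45, limma adjusted p = 0.0357, and 0.0856 with the day as a block). Gut markers were high on the same arrays as the summed members, as were some of the fat body markers given below. The sum over 11 of 12 gut markers, mostly digestive enzymes, was 509, 3363 and 2944 on LARK overexpression arrays 1, 2 and 3 and between 425 and 641 on control arrays. Of 10 gut marker probe sets tested, 5 passed the test as higher, beside 0.339% of all probe sets, and none with the day as a block. All 5 were under 40 on every control array and none passed with signals under 40 set to 40. The maltase gene Mal-A1 was at least 6.49-fold higher (limma adjusted p = 0.00478, and 0.107 with the block) and the trypsin gene alphaTry at least 3.5-fold (adjusted p = 0.0435, and 0.208 with the block). Like PGRP-SC2, the gut sum was high on LARK overexpression arrays 2 and 3, but on replicate 1 it was higher with LARK overexpression than in the control and PGRP-SC2 was lower.

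Fat body markers other than the yolk proteins summed to 12985, 9028 and 8729 on LARK overexpression arrays 1, 2 and 3 and to between 11423 and 11752 on the control arrays. Fat body markers went both ways. Of 11 probe sets tested, yolk proteins included, 6 were below 0 and 2 passed the test as higher, beside 0.339% of all probe sets. These were Fbp1 (2.78, SE 0.65) and Obp99b (2.72, SE 0.61), with limma adjusted p = 0.122 and 0.146 with the day as a block. Without replicate 1, 4 of 11 were above 0: Fbp1, Fbp2, Obp99b and Tsf1. Rescaled signals on LARK overexpression arrays 1, 2 and 3 were 54, 642 and 653 for Fbp1 and 78.1, 910 and 709 for Obp99b. The marker fit went the other way, with 5270, 1080 and 1122. Hemocyte markers, which had probe sets for 10 of 11 genes, summed to 554 to 998 with LARK overexpression and 745 to 1200 in the control, with none of 10 probe sets past the test and a median log2 difference of -0.35. Glia markers summed to 2479 to 3137 and 2190 to 3021. No marker of these lists was at 0 on all arrays. The eIF-4a ratio of 3' to 5' signal was 6.52, 6.26 and 6.05 on LARK overexpression arrays 1, 2 and 3, and so was high on array 1 as well. The part of gut or other tissue, and of RNA quality, in the differences of the recognition and signaling genes was not tested.

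**Figure D4:**
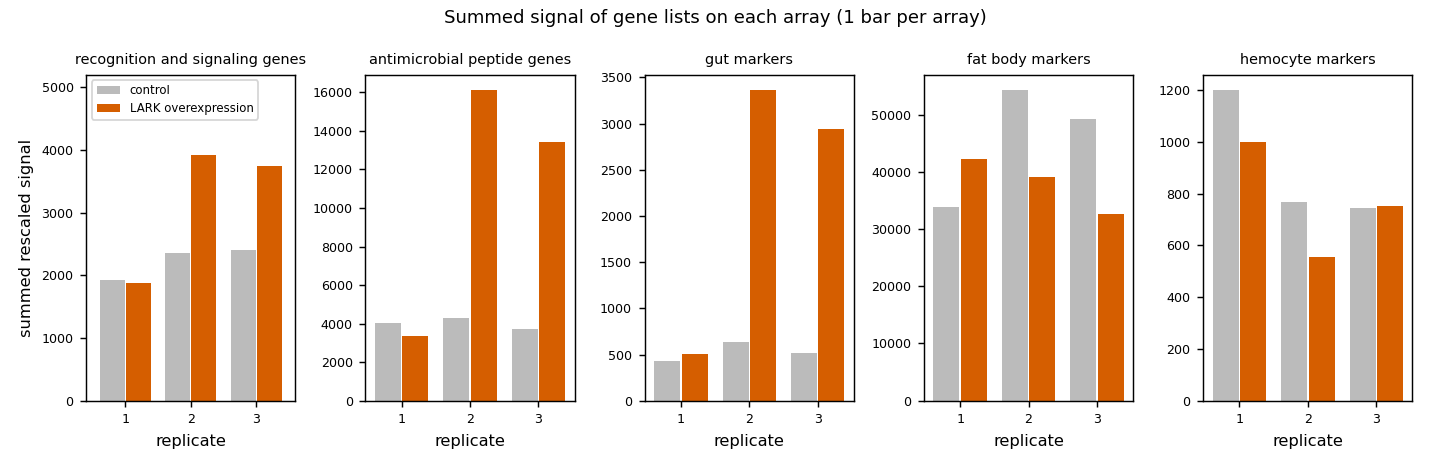
Summed rescaled signal (vertical axis, linear, from 0) of the recognition and signaling genes, antimicrobial peptide genes and markers of gut, fat body (yolk proteins included) and hemocytes on each array, by replicate number, with control in grey and LARK overexpression in orange. The recognition and signaling genes (3921 and 3746), the antimicrobial peptide genes and the gut markers (3363 and 2944) are high on LARK overexpression arrays 2 and 3 and not on array 1.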

How the data were processed

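Adult head RNA was hybridized to Affymetrix Drosophila genome arrays, 3 per genotype. The authors deposited 1 table of linear signal intensities for 14010 probe sets, 44 of them array controls, whose per-array trimmed means (2% cut from each end) show that each array was scaled by the authors. The notes of the submitters name MAS5 and the methods name GCRMA, and the values are on a linear, not a log2, scale. Per-array depth does not apply, and the small number of arrays limits the precision. The deposited array records, used as other information, gave the hybridization day. Probe sets were named through the platform annotation (12443 with 1 symbol, 327 with several, 1196 with none), with older symbols and neighbours from RefSeq.

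The test took probe sets with a signal over 40 on 1 or more arrays, after the methods, with limma 3.58.1 in R 4.3.3 on log2 signals as deposited, two-sided, with Benjamini-Hochberg adjustment over all 9432 and a call at adjusted p under 0.05. Scripts were tested on simulated data. Deviations from the genotype means correlated at 0.0936, 0.172 and 0.0256 between arrays of the same number and at -0.212 to 0.102 otherwise. The hybridization day is shared by same-numbered arrays, so values with it as a block stand beside the results. Where a group was at or under 40 on every array, its signals were set to 40 and the fold is given as at least that value, from the mean log2 signals of the groups. The members and lists were chosen with earlier results of these data known. Every member is named, and of each pathway list the genes past the test or otherwise the 3 of highest mean signal. Alternatives changed scaling, offset, floor, filter, variance prior, block and arrays used. Fits to replicates 2 and 3 alone with centring or block were added after seeing the data.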

Additional observations from a re-analysis of the deposited data

How the results depend on the processing

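The number of probe sets past the test, 146 on all arrays, was 242 with 16 added to each signal, 230 with an intensity trend and robust prior, 571 with these and the replicate block, 12 without a filter, and 0 with the replicate block alone (1903 at an unadjusted p under 0.05) or with a floor at 40. On the arrays of replicates 2 and 3 it was 164, or 347 with each array centred and 0 with the block, the latter pair chosen after seeing the data. Of the calls, 21.9% were higher with LARK overexpression, against 8.59% with each array centred, 8.47% with quantile normalization, 46.7% with 16 added, 50.5% with the filter at 100 and 73.8% without replicate 1. Leaving out single arrays gave 0 to 759 calls, 465 without LARK overexpression array 1 and 759 without it and with centring.

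Of the recognition and signaling genes, 1 passed with 16 added, with the filter at 100, with the trend and robust prior (PGRP-SC2 in each), with the block, trend and robust prior (Rel), and on replicates 2 and 3 alone, centred or not (PGRP-SC2). Leaving out single arrays gave 0 to 3, and only the fits without LARK overexpression array 1 gave any. Of the other recognition, Imd and Toll genes, 4 passed with the block, trend and robust prior, and 0 to 1 when single arrays were left out. The log2 difference of nec turned to -0.02 with quantile normalization and ran from -0.08 to 0.28 when single arrays were left out. PGRP-SC2 ran from 1.66 to 4.03 over all alternatives (adjusted p from 0.000171 to 0.683), Rel from 0.60 to 1.32, cact from 0.62 to 1.30, PGRP-LB from 0.27 to 0.87, PGRP-SB1 from 0.14 to 0.90, and the median of the 6 from 0.44 to 1.07, all above 0. Each gene had 1 probe set, so averaging several probe sets of a gene could not be run, and no sequence was used. Signals of PGRP-SC2 below 40 on control arrays limit its fold. With 16 added its SE was the 0.41 shared by all 6 genes. With the filter at 100 it was tested only through LARK overexpression arrays 2 and 3.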
